A study of Rattus norvegicus with 6 samples.

Results

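Cytochrome P450 genes were measured in the colons of 6 male rats treated with the carcinogen azoxymethane (AOM), each rat on an Agilent array of its own read in one color. The rats were 3 of the S.LEW congenic strain, S.LEW(10)x12x2x3x5 (arrays C1, C2 and C3), and 3 Dahl salt-sensitive SS/Jr rats, named S (arrays S1, S2 and S3). The congenic strain carries a segment of chromosome 10 from the Lewis rat in the S genome, and 1 such strain was used. Every rat ate a low-salt diet with 0.3% NaCl, received 2 weekly intraperitoneal injections of AOM at 15 mg/kg from 6 weeks of age, and was killed at 30 weeks of age. No untreated rats were among the arrays analysed here, so each difference below is one between strains under AOM. Whether the colon pieces used for RNA held tumors is not given in the sources used here.

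The P450 probes were those whose accession belongs to a rat gene named as a cytochrome P450. RefSeq lists 104 such gene symbols, and 79 probes on the array, for 68 genes, matched one of them. Of these, 55 probes for 47 genes were well above the array background on at least 3 of the 6 arrays and were kept, out of 23997 probes tested in all, which name 12418 genes. The other 24 probes are accounted for near the end. Signals are the study's quantile-normalized log2 values, and a difference is the congenic mean minus the S mean on that log2 scale, so that a difference of 1 is a 2-fold change. A probe was called higher or lower when the unadjusted p-value of limma was under 0.05 and the change was at least 2-fold, the cut-offs of the study.

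P450 enzymes hold a heme group and use molecular oxygen to oxidize their substrates. Those of the endoplasmic reticulum receive electrons from the reductase encoded by Por, and those of mitochondria receive them from ferredoxin. The CYP1, CYP2 and CYP3 families act mostly on drugs, carcinogens and arachidonic acid, the CYP4 family oxidizes fatty acids and eicosanoids at the end of the chain, and the remaining families make or clear steroids, bile acids, vitamin D and retinoic acid. In the intestine P450 enzymes are best known from the epithelium. AOM itself becomes a DNA-alkylating agent after hydroxylation, for which Cyp2e1 is the enzyme best known, chiefly in the liver.

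The 6 arrays were not equally alike. Array S2 correlated with S1 and S3 at Pearson r of 0.900 and 0.937 over all probes tested, and with the congenic arrays at 0.967 to 0.976, while S1 and S3 correlated at 0.980. Arrays C2 and C3 were scanned in one session, and C1 was scanned together with the 3 S arrays. Between 73.8% (C2) and 87.6% (S3) of the spots were well above background, and no spot was saturated. Results are therefore also given without S2 and with the scan as a block, a fit that rests on C1 against the 3 S arrays. With all 6 arrays no probe of any gene passed a Benjamini-Hochberg adjusted p of 0.05 in limma. The lowest was 0.0843, and all P450 probes lay between 0.205 and 0.974. Without S2, 23.1% of all probes passed it, so the adjusted p-values given below without S2 stand against that share. S2 was singled out for its likeness to the congenic arrays, so leaving it out widens many strain differences by that choice.

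Some of the P450 genes described below belong to groups of related genes on 1 chromosome, so the 250 bases before the start of 6 of them are shown from RefSeq (GRCr8), each read 5′ to 3′ along its gene. Cyp4f40 and Cyp4f1, both called higher in the congenic rats, lie in the Cyp4f region of chromosome 7 with other genes between them, and so does Cyp4f5, whose values were lower. Cyp2j4 and Cyp2j3 are next to each other on chromosome 5. Cyp2s1, called lower, stands at the edge of the Cyp2b group on chromosome 1. Capitals mark a match, on either strand, to GCGTG (the core of the dioxin response element), to AGGTCA (a nuclear receptor half-site) or to TATAAA, the element that sets the start in some promoters. They also mark GGGCGG, a site of Sp1-type factors, CCAAT, a site of NF-Y, and AGATAA, a motif of intestinal zinc finger factors. No match overlapped another in these sequences.
Cyp4f40 (chr7:12342340-12342589, plus strand): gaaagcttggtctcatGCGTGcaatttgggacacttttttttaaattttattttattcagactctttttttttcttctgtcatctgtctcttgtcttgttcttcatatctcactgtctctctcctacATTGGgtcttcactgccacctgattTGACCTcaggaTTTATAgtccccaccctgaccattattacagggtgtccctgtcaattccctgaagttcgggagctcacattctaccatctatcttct
Cyp4f1 (chr7:12672554-12672803, minus strand): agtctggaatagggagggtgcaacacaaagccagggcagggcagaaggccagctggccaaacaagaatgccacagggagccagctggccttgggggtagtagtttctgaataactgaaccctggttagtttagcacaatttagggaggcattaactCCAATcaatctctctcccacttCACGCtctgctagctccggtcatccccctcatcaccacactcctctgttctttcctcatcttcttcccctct
Cyp4f5 (chr7:12194387-12194636, plus strand): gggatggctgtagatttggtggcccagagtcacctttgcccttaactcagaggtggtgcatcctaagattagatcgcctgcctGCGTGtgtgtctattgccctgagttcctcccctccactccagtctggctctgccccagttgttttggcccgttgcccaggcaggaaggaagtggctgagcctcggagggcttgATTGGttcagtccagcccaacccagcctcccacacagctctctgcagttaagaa
Cyp2j4 (chr5:116323043-116323292, minus strand): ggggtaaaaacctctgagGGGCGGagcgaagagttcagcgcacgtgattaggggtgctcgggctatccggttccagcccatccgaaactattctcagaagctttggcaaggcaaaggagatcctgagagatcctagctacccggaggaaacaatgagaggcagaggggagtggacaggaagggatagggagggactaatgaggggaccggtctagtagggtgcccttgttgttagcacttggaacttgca
Cyp2j3 (chr5:116360500-116360749, minus strand): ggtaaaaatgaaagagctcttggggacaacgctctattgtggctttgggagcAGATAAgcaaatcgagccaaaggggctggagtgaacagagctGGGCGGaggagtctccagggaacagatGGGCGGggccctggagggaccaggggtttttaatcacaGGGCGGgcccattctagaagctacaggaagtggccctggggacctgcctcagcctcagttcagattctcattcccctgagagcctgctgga
Cyp2s1 (chr1:90453074-90453323, minus strand): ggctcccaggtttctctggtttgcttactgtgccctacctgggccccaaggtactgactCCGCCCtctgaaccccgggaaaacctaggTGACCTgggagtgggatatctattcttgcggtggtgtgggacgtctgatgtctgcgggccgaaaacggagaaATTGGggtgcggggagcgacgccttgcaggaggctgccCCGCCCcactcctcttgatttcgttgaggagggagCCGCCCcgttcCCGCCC
The 3 Cyp4f sequences each held GCGTG, which 25.9% of 33469 RefSeq promoters hold in the same 250 bases. That of Cyp4f6 held it too, and that of Cyp4f18 did not. GCGTG began 234 bases before the start of Cyp4f40, 72 before that of Cyp4f1 and 167 before that of Cyp4f5. It was thus present both in genes with higher and in one with lower values. AGGTCA, found in 14.1% of promoters, was 98 bases before the start of Cyp4f40 and 162 before that of Cyp2s1. GGGCGG, found in 30.5%, occurred 3 times before Cyp2j3, 4 times before Cyp2s1 and once before Cyp2j4. These matches describe the letters only. Of the 47 kept genes 39 had a promoter in the table, and the shares over all 39 stood at 28.2% for GCGTG, 23.1% for AGGTCA and 30.8% for GGGCGG.

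Of the P450 probes, 8 were called higher and 1 was called lower in congenic than in S rats. The called-higher probes were for Cyp4f1, Cyp4b1, Cyp4f40, Cyp2d2, Cyp2c23, Cyp11a1 and, with both of its probes, Cyp2j4, and the called-lower probe was for Cyp2s1. The 8 were 14.5% of the 55, against a background of 3.23% of all probes tested (776 probes), and the 1 was 1.82% against 2.34% (562 probes). When the arrays were scaled by their 75th percentile in place of quantiles, the split over all probes turned to 692 higher and 759 lower, while the P450 calls were 7 higher and 1 lower. By unadjusted p alone, 17 of the 55 passed, where the background was 13.0% of all probes (3115). After Benjamini-Hochberg adjustment 0 passed, with a background of 0.0%. Fewer cells of a type and less RNA per cell cannot be told apart in these bulk samples.

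For 14 of the 55 probes (25.5%) every congenic array lay above every S array, where the background was 12.4% of all probes. For 8 (14.5%) every congenic array lay below every S array, with a background of 5.33%, and for 33 the strains overlapped. The median difference over the 55 probes was 0.17, with 31 probes above 0 and 24 below, and that over all probes tested was 0.01. This median rested on single rats, being 0.00 without C1 and -0.05 without S1. With 3 rats per strain an exact two-sided permutation test cannot give a p below 0.1, which is its value for each of the probes whose strains did not overlap.

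**Figure D1:**
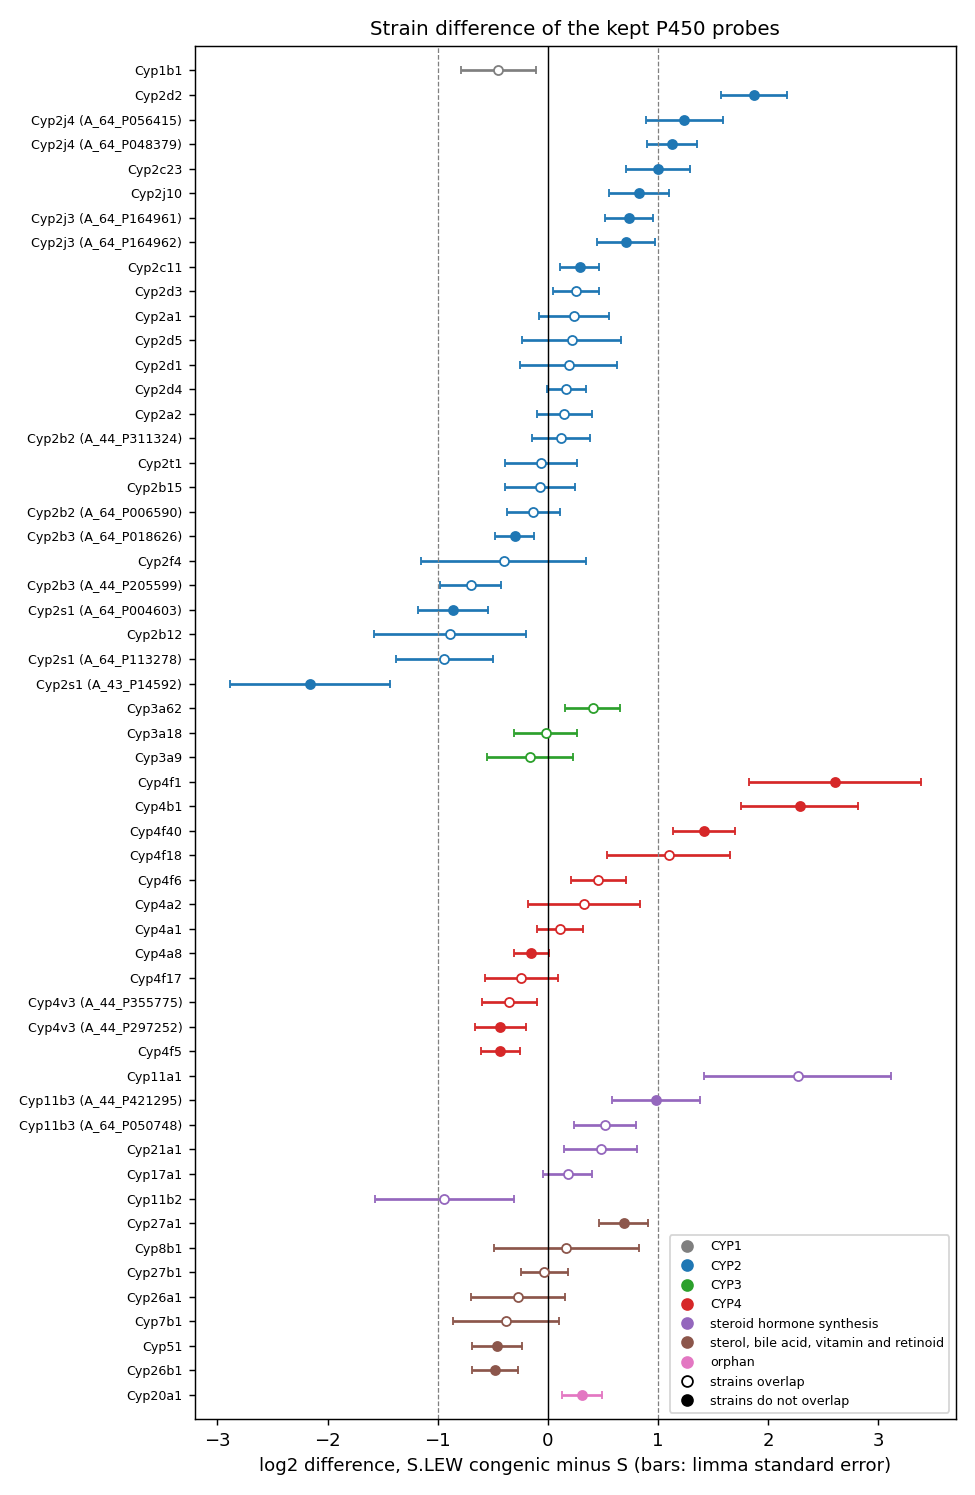
Difference between strains of the 55 kept P450 probes (x axis, log2, S.LEW congenic minus S, limma standard error as bars), grouped and colored by family or role, with filled points where the strains did not overlap and dashed lines at a 2-fold change. Differences ran from -2.16 for a Cyp2s1 probe to 2.61 for Cyp4f1, and the Cyp2j probes all lay above 0.

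The CYP4 family, which oxidizes the ends of fatty acids and eicosanoids, held 12 kept probes for 11 genes. Of these probes 3 were called higher and none lower, against backgrounds of 3.23% and 2.34% of all probes. Cyp4f1, a hydroxylase of leukotrienes and long-chain fatty acids, read 13.44, 12.93 and 13.47 on C1, C2 and C3 and 12.55, 9.69 and 9.75 on S1, S2 and S3. The congenic arrays lay close together and S1 lay much nearer to them than to S2 and S3. The mean difference of 2.61 (standard error 0.78, limma adjusted p = 0.312) was the largest of any P450 probe, a 6.13-fold change. It ranged from 2.13 without S2 to 3.56 without S1, and its limma adjusted p with a rat left out ran from 0.0274 to 0.865. The lowest adjusted p came without S1, the S array nearest to the congenic rats on this probe. Without S1, 41 of all 23997 probes passed 0.05. With the scan as a block the difference was 2.78 with an unadjusted p of 0.0655 in limma, which was not past the cut-off. The methods' t-test did not call it either (unadjusted p = 0.0531).

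Cyp4b1, which oxidizes short fatty acids and activates some protoxins, had the next largest difference among the P450 probes. Its log2 signals were 8.56, 7.05 and 6.53 in the congenic rats and 5.22, 5.38 and 4.67 in the S rats. C1 stood above the other congenic rats, and no S array reached the lowest congenic array. The difference was 2.29 (standard error 0.53, limma adjusted p = 0.266), a 4.88-fold change. It was 1.70 without C1, 3.47 with the scan as a block, where C1 is the only congenic array, and 1.17 after another background correction (normexp), and it remained past the cut-offs in each of these.

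Cyp4f40, a further fatty acid hydroxylase of the Cyp4f group on chromosome 7, gave 9.16, 8.51 and 8.54 against 7.66, 7.32 and 6.96. The strains were separated by a gap wider than the spread of either. The difference of 1.42 (standard error 0.28, limma adjusted p = 0.218) kept its call with each rat left out, between 1.21 and 1.6, and was 1.85 with the scan as a block.

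The other Cyp4f genes were not called, with 2 above 0 and 2 below. Cyp4f5, in the same group on chromosome 7, read 11.45, 11.45 and 11.60 in the congenic rats and 11.88, 11.81 and 12.12 in the S rats. Every congenic array was lower, by a mean of -0.43 (standard error 0.18, limma adjusted p = 0.38), which was under 2-fold. Cyp4f6 differed by 0.46 and Cyp4f17 by -0.24, with overlapping strains. Cyp4f18, a leukotriene hydroxylase of leukocytes that lies apart on chromosome 16, read 8.61, 8.65 and 8.90 against 6.65, 8.93 and 7.28. Here S2 was as high as the congenic rats and only S1 and S3 were low, so the difference of 1.1 was not called with all rats (limma adjusted p = 0.432). Leaving out S2, the S rat against the difference, could only raise it, to 1.75 (limma adjusted p = 0.0119).

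The Cyp4a genes, fatty acid omega-hydroxylases and classic targets of Ppara, showed little difference. Cyp4a8 read 15.46, 15.46 and 15.38 in the congenic rats and 15.50, 15.70 and 15.54 in the S rats, a difference of -0.15 without overlap. Cyp4a1 differed by 0.11 and Cyp4a2 by 0.33, both with overlapping strains. The Cyp4v3 probes, for a fatty acid hydroxylase, differed by -0.43 and -0.35.

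**Figure D2:**
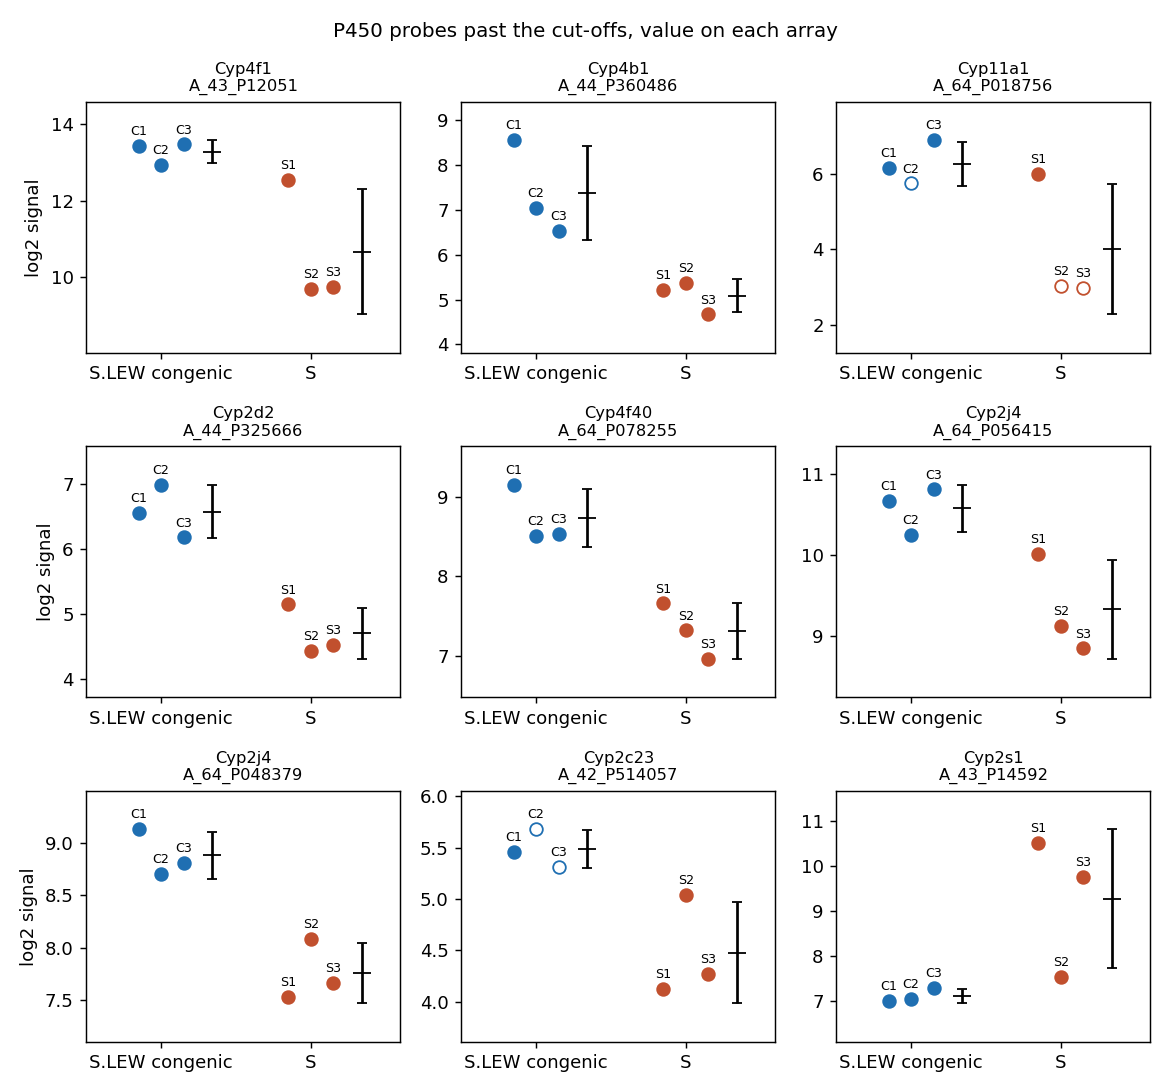
Log2 signal of the 9 P450 probes past the cut-offs on each of the 6 arrays, with S.LEW congenic rats in blue, S rats in orange and the mean with SD (n = 3 per strain) as a bar beside them; open circles were not well above background. Cyp11a1 is the one probe of the 9 whose strains overlap, and S1 of Cyp4f1 and S2 of Cyp2s1 lie nearer to the congenic rats than the other S rats do.

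The CYP2 family held 25 kept probes for 19 genes, of which 4 were called higher (background 3.23%) and 1 lower (background 2.34%). Its Cyp2j group, enzymes that make epoxides from arachidonic acid, had 5 probes for 3 genes. Every congenic array lay above every S array on each of the 5 (background 12.4% of all probes), and 2 were called higher (background 3.23%). One Cyp2j4 probe read 10.67, 10.25 and 10.81 in the congenic rats and 10.02, 9.13 and 8.85 in the S rats, with S1 close to the lowest congenic array. Its difference was 1.24 (standard error 0.35, limma adjusted p = 0.29). The second Cyp2j4 probe read 9.13, 8.70 and 8.81 against 7.53, 8.08 and 7.66, with S2 the nearest of the S rats. Its difference was 1.13 (standard error 0.23, limma adjusted p = 0.228), so that both probes of the gene were called and gave changes within 0.11 of each other. With the scan as a block the first was 1.33 and lost its call, and the second was 1.38 and kept it. The second lost its call without C1, at 1.0 and just under 2-fold, and with normexp background correction, at 0.92.

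Cyp2j3 and Cyp2j10 went the same way by less than 2-fold. The 2 Cyp2j3 probes read 8.64, 8.38 and 8.51 against 7.38, 7.92 and 7.99, and 7.49, 7.08 and 7.35 against 6.13, 6.88 and 6.78, differences of 0.74 and 0.71 (standard errors 0.22 and 0.26). On both probes S1 was the lowest array of all. Cyp2j10 read 5.28, 4.56 and 5.45 against 4.08, 4.38 and 4.34, a difference of 0.83 (standard error 0.27), and was not well above background on C2, without which it was 1.1 and past the cut-offs. The limma adjusted p of these 3 probes was 0.317, 0.357 and 0.337. The median over the 5 Cyp2j probes was 0.83, and each of them stayed above 0 under every alternative that measured it. With 75th percentile scaling the strains overlapped on Cyp2j10 (0.54) and on the second Cyp2j3 probe (0.69).

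The Cyp2d genes, which metabolize many basic drugs, lie side by side on chromosome 7 and differed among themselves. Cyp2d2 read 6.56, 6.99 and 6.18 in the congenic rats and 5.15, 4.43 and 4.53 in the S rats. All congenic arrays were above all S arrays by more than 1 log2 unit. The difference of 1.87 (standard error 0.30, limma adjusted p = 0.205), a 3.65-fold change, had the lowest adjusted p of the P450 probes. It ranged from 1.66 to 2.09 with a rat left out and was 1.85 with the scan as a block, past the cut-offs each time, but fell to 0.83 with normexp background correction and was not called there. Its neighbors Cyp2d1, Cyp2d5, Cyp2d3 and Cyp2d4 differed by 0.19, 0.22, 0.26 and 0.17, all with overlapping strains. The probes of Cyp2d1 and Cyp2d5 gave values within 0.1 of each other on every array, so these near-identical genes cannot be told apart here.

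Cyp2c23, the main arachidonic acid epoxygenase of the rat kidney, was called higher at the limit of detection. It read 5.46, 5.68 and 5.31 against 4.12, 5.04 and 4.27, a difference of 1.0 (standard error 0.29, limma adjusted p = 0.3). On C2 and C3 the probe was not well above background, although it was on all S arrays. The difference was 0.75 when the scanner values were normalized again, 0.51 with 75th percentile scaling and 0.21 with normexp, and was not called in any of these, nor without C2, S1 or S3. Cyp2c11, the male-specific liver enzyme, differed by 0.29 and was well above background on 5 of the 6 arrays.

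Cyp2s1, an extrahepatic P450 of epithelia, was the one gene called lower. Its called probe read 7.0, 7.04 and 7.30 in the congenic rats and 10.52, 7.54 and 9.76 in the S rats. The congenic rats were tightly grouped, and S1 and S3 were far above S2, which was only slightly above the congenic rats. The difference was -2.16 (standard error 0.73, limma adjusted p = 0.339), a 4.47-fold change. The other probes gave 6.62, 6.12 and 5.78 against 7.54, 6.67 and 6.88, and 7.46, 7.27 and 7.58 against 9.16, 7.41 and 8.56, differences of -0.86 and -0.94 (standard errors 0.32 and 0.44), neither called with all rats. The first of them was called without C1 (-1.09) or S2 (-1.04), and the second without S2 (-1.42). All 3 probes thus had S1 highest and S2 lowest among the S rats, and they disagreed in size by up to 1.30. The called probe was -3.03 without S2 (limma adjusted p = 0.00412, where 23.1% of all probes passed 0.05) and -1.54 without S1. It lost its call without C1, C2, S1 or S3, with the scan as a block and in the methods' t-test (unadjusted p = 0.074).

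The B and T lymphocyte markers split the S rats in the same way as Cyp2s1. Of 10 markers 5 were on the tested table, and their mean deviation from the average of the 6 arrays was 2.32 on S1, -1.35 on S2 and 2.38 on S3, with -1.19 to -1.02 on the congenic arrays. Their summed linear signal was 1220 to 1760 in the congenic rats and 1600 to 29700 in the S rats. Cd3e, Cd2 and Cd79b were well above background on 2 arrays at most and were not among the 5. Cyp4f18 split the S rats the other way, at 6.65 on S1, 8.93 on S2 and 7.28 on S3. The smooth muscle markers also had S2 highest, with mean deviations of -1.54 on S1, 0.68 on S2 and -0.51 on S3. The part of these cell types in the values of Cyp2s1 and Cyp4f18 was not tested.

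The remaining CYP2 genes were not called. The Cyp2b group, drug-inducible enzymes of the liver, had 6 probes for 4 genes next to Cyp2s1 on chromosome 1, with 5 of 6 below 0 and a median of -0.22. Its Cyp2b3 probes differed by -0.70 and -0.30, the second without overlap. Cyp2b12 differed by -0.89 but was well above background on only 3 arrays. Cyp2a1, Cyp2a2 and Cyp2t1 differed by 0.24, 0.15 and -0.06. Cyp2f4, an enzyme of the lung, ranged over 2.65 among the S rats, from 4.08 to 6.73, and differed by -0.40.

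The single CYP1 probe and the CYP3 probes, families that oxidize many carcinogens and drugs, were not called either. Cyp1b1 read 7.19, 6.21 and 6.49 in the congenic rats and 6.78, 7.56 and 6.90 in the S rats. The strains overlapped at a difference of -0.45 (standard error 0.34, limma adjusted p = 0.542), and the sign turned to 0.11 with the scan as a block. Cyp3a9, a steroid-metabolizing enzyme, read 9.96, 9.82 and 8.89 against 9.12, 9.88 and 10.13, a difference of -0.16 that was 0.25 with the scan as a block. Cyp3a62 and Cyp3a18 differed by 0.41 and -0.02.

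The genes of steroid hormone synthesis gave 6 probes for 5 genes, with 1 called higher (background 3.23%) and none lower (background 2.34%). Cyp11a1, which cleaves the side chain of cholesterol, read 6.17, 5.75 and 6.90 in the congenic rats and 6.01, 3.04 and 2.98 in the S rats. S1 lay among the congenic rats, and C2, S2 and S3 were not well above background. The difference of 2.27 (standard error 0.85, limma adjusted p = 0.36) was 3.27 without S1 and 1.75 to 1.78 without S3 or S2, and its call was lost without C1, C3, S2 or S3 and with the scan as a block. With normexp background correction the difference was 0.68 and not called, and the methods' t-test did not call it either (unadjusted p = 0.0988). On Cyp11a1 and Cyp4f1 alike, S1 was the S array near the congenic rats.

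The other steroidogenic probes were not called. The first Cyp11b3 probe, for an enzyme of the corticosteroid pathway, read 8.14, 8.35 and 8.90 against 6.68, 7.94 and 7.82. It differed by 0.98 without overlap (standard error 0.40, limma adjusted p = 0.38), the second probe by 0.52 with overlap, and the first was called without S2, at 1.21. Cyp11b2, aldosterone synthase, read 4.86, 5.80 and 3.55 against 4.85, 6.24 and 5.95 with overlapping strains. It was well above background on the 3 S arrays only, through which it was kept. Cyp21a1 and Cyp17a1 differed by 0.48 and 0.18. Of the adrenal and gonad markers, 4 of 5 were on the tested table and none was called, and their summed linear signal was 466 to 470 in the congenic rats and 351 to 466 in the S rats.

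The enzymes of sterols, bile acids, vitamin D and retinoic acid gave 7 probes for 7 genes, with a median of -0.27. None of them was called (backgrounds 3.23% higher and 2.34% lower). Cyp27a1, the mitochondrial sterol hydroxylase of bile acid synthesis, read 9.59, 9.5 and 9.25 in the congenic rats and 8.5, 9.10 and 8.68 in the S rats. Every congenic array was higher, by a mean of 0.69 (standard error 0.22, limma adjusted p = 0.333). Cyp51, which demethylates lanosterol on the way to cholesterol, read 9.14, 9.38 and 9.25 against 9.46, 10.11 and 9.57, a difference of -0.46 without overlap (standard error 0.23, limma adjusted p = 0.423). Cyp26b1, which clears retinoic acid, read 6.81, 6.91 and 6.73 against 7.47, 6.94 and 7.48. S2 almost met the congenic rats, and the difference was -0.48 with all rats (limma adjusted p = 0.397) and -0.66 without S2 (adjusted p = 0.032).

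Cyp27b1, which makes active vitamin D, read 7.68, 7.46 and 7.25 against 7.32, 7.72 and 7.45, a difference of -0.03 whose sign depended on the rats and the scan. Cyp7b1, an oxysterol hydroxylase, read 5.66, 6.02 and 6.51 against 6.77, 5.44 and 7.12, with S2 again apart from S1 and S3, and differed by -0.38. Cyp26a1 and Cyp8b1 differed by -0.27 and 0.17. Cyp20a1, an orphan P450 without a known substrate, read 10.12, 10.22 and 10.32 against 9.76, 10.10 and 9.87, higher by 0.31 without overlap.

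Leaving out S2 changed the number of P450 probes past the thresholds. Without it 9 probes were called higher (16.4%) and 3 lower (5.45%), against backgrounds of 9.99% and 7.19% of all probes. In limma 10 P450 probes then had an adjusted p under 0.05 (18.2%), where the background was 23.1% of all probes. The 7 higher among them were Cyp4b1 (2.43), Cyp4f18 (1.75), Cyp2d2 (1.73), Cyp4f40 (1.43), one Cyp2j4 probe (1.29), Cyp2c23 (1.28) and Cyp27a1 (0.85). The 3 lower were the Cyp2s1 probes at -3.03 and -1.42 and Cyp26b1 at -0.66.

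With the scan as a block 5 P450 probes were called higher and none lower, where over all probes 551 and 227 were. They were Cyp4b1, Cyp4f40, Cyp2d2, the second Cyp2j4 probe and Cyp8b1, the sterol hydroxylase of cholic acid synthesis, named here after its values were seen. Cyp8b1 read 6.66 on C1, 5.14 and 3.99 on C2 and C3, where it was not well above background, and 4.65, 5.22 and 5.41 on the S arrays. Scan and strain are partly confounded, since the second scan held only congenic rats.

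**Figure D3:**
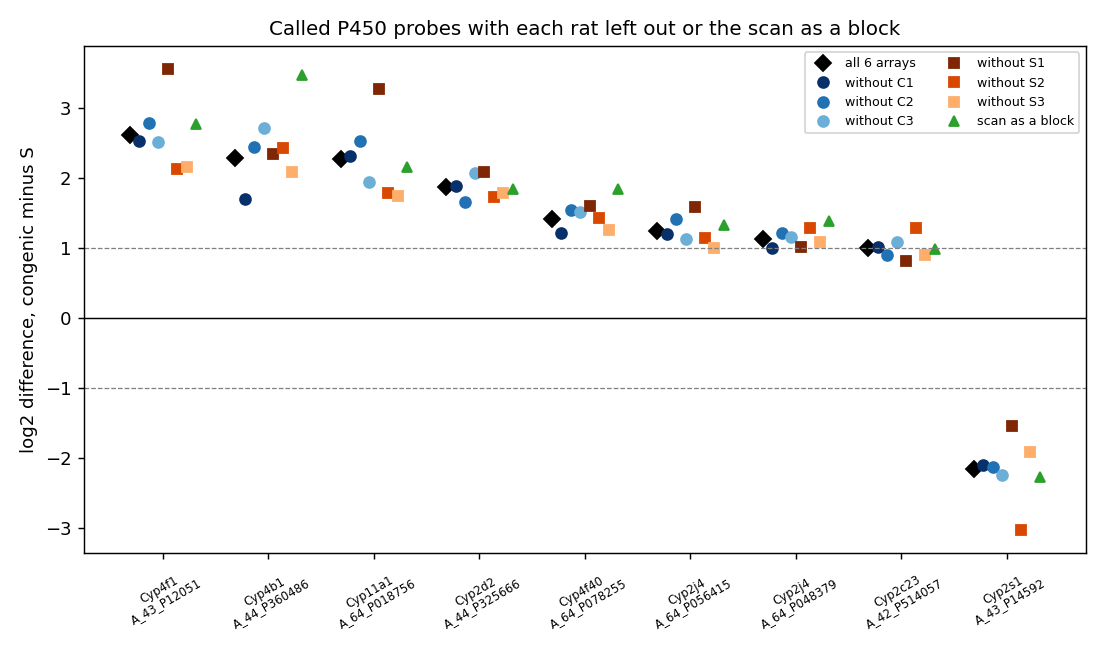
Difference between strains (y axis, log2, congenic minus S) of the 9 P450 probes past the cut-offs with all 6 arrays (diamond), with each rat left out (circles for congenic rats, squares for S rats) and with the scan as a block (triangle); dashed lines mark a 2-fold change. Every value kept its sign. Cyp4b1 with the scan as a block (3.47 against 2.29), Cyp4f1 and Cyp11a1 without S1 (3.56 and 3.27) and Cyp2s1 without S2 (-3.03) lie well away from the values with all arrays.

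The genes that supply P450 enzymes with electrons and heme were also read. Of 10 electron transfer genes none was called, 4 were higher without overlap (background 12.4%) and none lower (background 5.33%), and their median was 0.33, beside 0.01 over all probes. Por read 10.56, 10.43 and 10.43 in the congenic rats and 9.89, 10.24 and 10.08 in the S rats, a difference of 0.40 (standard error 0.18, limma adjusted p = 0.393). Fdx1, the ferredoxin of mitochondrial P450s, differed by 0.69 (standard error 0.17), and Cyb5a, cytochrome b5, by 0.62 (standard error 0.20). Of 12 genes of heme synthesis and breakdown none was called, 6 were higher without overlap (background 12.4%) and none lower (background 5.33%), with a median of 0.32. Alas1, the first step of heme synthesis, read 13.42, 13.47 and 13.05 against 12.36, 12.68 and 12.52, a difference of 0.80 (standard error 0.20, limma adjusted p = 0.269).

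Of 20 regulators of P450 genes 19 were on the tested table, with 3 called higher (background 3.23%), none lower (background 2.34%) and a median of 0.45. Nr1h4, the bile acid receptor, read 11.56, 11.32 and 11.62 against 10.58, 10.41 and 9.86, a difference of 1.22 (standard error 0.24, limma adjusted p = 0.223). Vdr, the vitamin D receptor, read 10.57, 10.14 and 10.03 against 8.62, 9.88 and 8.55, a difference of 1.23 (standard error 0.40, limma adjusted p = 0.333), with S2 close to the congenic rats. Ppara, a receptor for fatty acids, read 7.32, 6.60 and 7.39 against 6.28, 5.95 and 5.55, a difference of 1.18 (standard error 0.30, limma adjusted p = 0.275). Ahr, the receptor behind CYP1 induction, differed by 0.11, and Nr1i2, the pregnane X receptor behind CYP3 induction, by 0.33, both with overlapping strains. In all, 8 regulators were higher and 2 lower without overlap (backgrounds 12.4% and 5.33%), the lower ones being Srebf2 (-0.40) and Rara (-0.54).

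Among markers of the cells that a colon piece can hold, the summed signals of epithelium and fat did not overlap between strains. Of 11 markers of colon epithelium 9 were on the tested table, 6 were higher without overlap (background 12.4%) and 2 were called higher (Vil1 at 1.01 and Slc26a3 at 1.07, background 3.23%). Their summed linear signal was 98700 to 149000 in the congenic rats and 60700 to 84100 in the S rats. Fat markers, 4 of 6 on the table with Cfd and Adipoq called higher (background 3.23%), summed to 1050 to 3130 and 480 to 745. Smooth muscle markers (7 of 7) summed to 584000 to 656000 and 190000 to 683000, with overlapping strains. Striated muscle markers (6 of 7) summed to 15400 to 19400 and 8230 to 32600, also with overlap, but Ckm, the brightest of them, dominated this sum. Their mean deviation from the average of the 6 arrays was -1.33 to -0.67 on the congenic arrays and 0.16 to 1.39 on the S arrays. The median difference was -1.75. Of the striated muscle markers 3 were called lower (background 2.34%), each without overlap (background 5.33%). Among these, Myh1 and Mybpc1 entered the table through the S arrays alone, so their congenic values were low by that filter. The mean deviation and the median include both genes, and so cannot show whether these markers separate the strains. Tnnt3, well above background on all 6 arrays, differed by -1.39, while Ckm, Actn3 and Myh2 had overlapping strains. Of the small intestine markers 6 of 7 were on the table, with a median of -0.04 and overlapping sums of 2010 to 3150 and 1540 to 3640. Fabp2 was called higher (1.69), and Fabp6 differed by -2.15 with overlap. Of the 8 hepatocyte markers Alb, Fgb, Fga, Apoh and Tat were well above background on no array, while Hpx was on 6, Serpina1 on 5 and Ahsg on 4, none of them called, with sums of 154 to 216 and 164 to 198. The part of these cell types in the P450 differences was not tested.

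**Figure D4:**
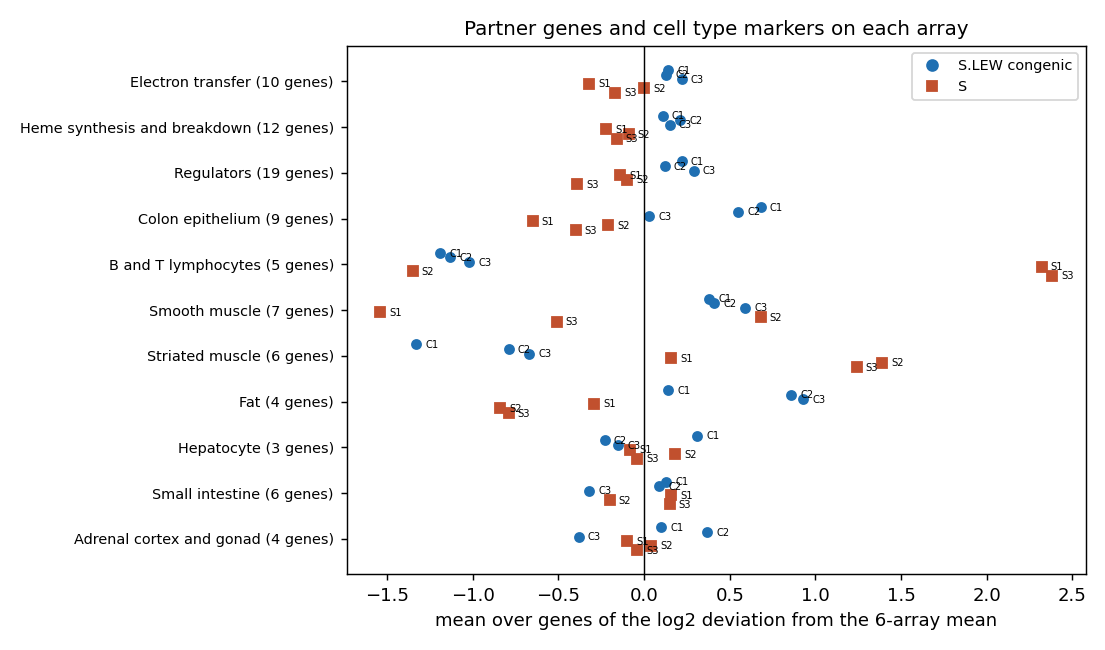
Mean deviation of partner genes and cell type markers from their average over the 6 arrays (x axis, log2) on each array, with S.LEW congenic rats as blue circles and S rats as orange squares. The epithelial markers lie above 0 on all congenic arrays and below 0 on all S arrays, and the lymphocyte markers are high on S1 and S3 alone.

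The 24 P450 probes that were not kept stood for 22 genes, and 16 of them (14 genes) were well above background on no array. Among these was Cyp2e1, the enzyme best known for activating AOM, whose 10 spots per array averaged between 2.57 and 3.52 on the log2 scale of the scanner values. Cyp1a1, the classic target of Ahr, also read by 10 spots, lay between 2.28 and 3.74, and Cyp24a1, which clears vitamin D, between 2.20 and 2.68. Cyp7a1, the first enzyme of classic bile acid synthesis, stayed dim on all 6 arrays too. For these genes a strain difference was not detectable at this signal. No probe matched Cyp2c55. Just inside the limit, on exactly 3 arrays, were Cyp11a1, Cyp11b2 and Cyp2b12, and just outside it, on 2 arrays, were Cyp4f4, Cyp4x1, Cyp11b1 and Cyp2r1, all 4 on S1 and S3.

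Detection itself differed between arrays. Of the 55 kept probes 41 were well above background on all 6 arrays, and of the other 14 all were dim on C2, 7 on C3, 2 on S2, 1 each on C1 and S3 and none on S1. A second Cyp4a8 probe was well above background only on S3. In 7 genes more than 1 probe was kept, and the differences of the probes of a gene lay between 0.03 (Cyp2j3) and 1.30 (Cyp2s1) apart.

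None of the 90 protein-coding P450 genes that RefSeq places is on chromosome 10, where the congenic segment lies. All 47 kept genes were placed, and the called genes lie on other chromosomes, with Cyp4f1, Cyp4f40 and Cyp2d2 on 7, Cyp4b1 and Cyp2j4 on 5, Cyp2c23 and Cyp2s1 on 1, and Cyp11a1 on 8.

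The pattern of Cyp2d2, the P450 probe with the largest limma t, was set against all probes with a gene name over the 6 arrays. The 5 most alike were Plet1 (Pearson r = 0.996), Ciao3 (0.995), Npr1 (0.992), Rnaseh2a (0.992) and Hacl1 (0.992). Their own differences between strains were 1.27, 0.31, 2.13, 0.30 and 0.41. The arrays share 2 strains and 2 scans, and with 6 points over all these probes such values of r are a description only.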

How the data were processed

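Colon RNA of 3 S.LEW congenic and 3 S rats was hybridized by the authors to Agilent Rat 4x44K arrays v3, 1 rat per array. The scanned images were read with the software Feature Extraction 11.0.1.1. For each spot the deposited scanner output holds an intensity, corrected for background within its array only, and flags. Quantile normalization by the authors in GeneSpring, with a filter for detection in 3 samples or more, gave the deposited log2 values of 23997 probes, which are the main values here. Set against the scanner intensity, quantile-normalized again, the columns correlated at Pearson r of 0.999908 to 0.999995, which sets their scale as log2 without centering of probes. Precision rests on 3 arrays per strain, and signal over background limits the dim probes.

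A probe counted as well above background on an array when at least 50% of its spots did. Accessions were matched to RefSeq genes of GRCr8, naming 18005 of 30367 probes. The array was designed on another build, so gene coordinates are those of the RefSeq promoter table alone. The strain difference of every probe was fitted without covariates by lmFit and eBayes of limma 3.58.1 (R 4.3.3), and p-values were adjusted by Benjamini-Hochberg over the 23997 probes. The study compared the strains with an unpaired t-test, which was run as an alternative. Scripts were tested on simulated data. Figures were drawn with matplotlib 3.10.9.

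Named probes are those past the cut-offs, those without overlap that changed at least 1.5-fold, the 3 with the widest range among S rats, and a fixed list of P450 genes. The members, gene lists and markers were chosen with earlier results of these data known. The study housed an S rat and a congenic rat in each cage, and the labels do not say which rats shared one. The deviations of same-numbered rats from their strain means correlated at -0.016, -0.13 and -0.061. These values cannot show whether same-numbered rats shared a cage, so the strains were compared without pairing and cage was not modelled. The study describes the arrays as individual rats, while the labels give replicate numbers only, so p-values are taken to measure the spread between these rats.

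Alternatives were the scanner values, 75th percentile scaling, normexp background correction (offset 50), stricter and no filters on dim probes, 1 probe per gene, array weights (gene-by-gene method, since the default did not converge), a replicate block, the scan as a block, the first scan alone, and each rat left out. Scan sessions, 2 in all, were read from the scanner headers. Tumor counts, staining and PCR of the study were not analysed here.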

Additional observations from a re-analysis of the deposited data

Results flagged for a closer look

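Cyp1a2, a P450 that oxidizes arylamines and is induced through Ahr, was not among the kept probes and so entered no comparison. Its probe was well above background on 1 congenic array (C1, at 4.97 on the log2 scale of the scanner values) and on 0 S arrays, where it read 3.85, 4.14 and 3.33, and on C2 and C3 it read 3.57 and 3.64. The difference between strains was not tested.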

How the results depend on the processing

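The P450 probes called higher numbered 8 and stayed above 0 under every alternative that measured them. With normexp background correction 4 were called higher and with the scan as a block 5, and with a rat left out 6 to 9. The 1 called lower became 0 with the methods' t-test, with the scan as a block and in the first scan alone, 3 with array weights, and 0 to 3 with a rat left out, 0 without S1 or S3 and 3 without S2. Over all probes the calls were 776 higher and 562 lower, against 359 and 380 with normexp, 515 and 178 with the t-test, 551 and 227 with the scan as a block, 443 and 187 in the first scan alone, 2000 and 1649 with array weights and 2397 and 1725 without S2. The probes with every congenic array higher, 14, were 25 in the first scan alone, where 1 congenic array remains, and 14 to 18 with a rat left out. Those with every congenic array lower, 8, were 8 to 14 with a rat left out, the highest without S2. The background over all 23997 probes, 2976 higher and 1278 lower with all arrays, rose as well. It was 6613 and 4696 in the first scan alone, and 7761 and 6604 without S2. These P450 counts therefore cannot be set against the shares of 12.4% and 5.33% found with all arrays. The median difference, 0.17, ran from -0.05 without S1 to 0.22 with a rat left out, and was 0.0 without C1.

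With the replicate number as a block 8 P450 probes were called higher and 1 lower, the same counts as without it, and 794 and 744 over all probes. Of the probes named one by one, Cyp27b1 turned sign to 0.04 with array weights, 0.19 with the scan as a block and in the first scan alone, and 0.08 without C3 or without S2, with a range of -0.14 to 0.08 as each rat was left out. Cyp3a9 turned to 0.25 with the scan as a block and in the first scan alone, 0.18 without C3 and 0.06 without S3 (range -0.45 to 0.18), and Cyp1b1 to 0.11 with the scan as a block and in the first scan alone. The cause of these changes was not tested, other than that leaving out arrays or blocking them leaves fewer rats in the comparison. Over 22 named probes and 17 alternatives, 321 values kept direction and side of the cut-offs, 32 lost a call and 7 gained one.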
